A study of Schizosaccharomyces pombe with 21 samples.

Results

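The transcripts of 7 fission yeast (Schizosaccharomyces pombe) genes were followed through phosphate starvation, in the presence or absence of cycloheximide, which blocks translation elongation. They are the thiamine synthesis genes nmt1 (SPCC1223.02), thi2 (SPBC26H8.01) and thi4 (SPAC23H4.10c), the vitamin transporter genes thi9 (SPAC9.10) and bsu1 (SPAC17A2.01), the regulator gene thi1 (SPAC1486.10) and the acid phosphatase gene pho4 (SPBC428.03c). The rule that chose the genes uses their names and functions and no measured value, but earlier results of these data were known at that point. All 7 were present among the 6988 genes of the count table and among the 6392 that passed the filter on low counts. Polyadenylated RNA was sequenced from 21 libraries of strain AGP72, mating type h-, in 7 groups of 3 libraries that the labels call biological replicates. The starved groups were held for 2, 4 or 8 h in ePMGT(-PO4) medium, either with cycloheximide at 100 µg/ml or with no drug. The 0 h group was a phosphate-replete log phase culture in YES medium with no drug. No group at 0 h received cycloheximide, and loss of phosphate and the change of medium cannot be told apart in any comparison with 0 h. The labels give no thiamine or pyridoxine content for either medium.

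Thiamine is converted to thiamine diphosphate, the cofactor of pyruvate decarboxylase, pyruvate dehydrogenase and transketolase. Fission yeast makes it by joining a pyrimidine and a thiazole moiety and can also import it. When thiamine is plentiful the cell represses nmt1, whose name stands for no message in thiamine and whose promoter is widely used as a thiamine-controlled switch. The zinc-finger transcription factor Thi1 is needed for expression of thiamine-repressed genes, among them pho4, which encodes a phosphatase that is distinct from the phosphate-controlled acid phosphatase Pho1.

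Total counts per library lay between 22079413 and 33563867. Values are given as CPM, counts scaled to a common library total, on TMM-scaled library sizes, which are not corrected for gene length, so levels are compared between groups and not between genes. Calls came from edgeR's quasi-likelihood test and needed a Benjamini-Hochberg adjusted p below 0.05 over all 6392 genes as well as a change of at least 2-fold, and "rose" and "fell" are used only of genes called in this way. These are shares of the RNA of a whole culture, so fewer cells that express a gene and less of its RNA per cell cannot be told apart. Log2 fold changes carry their SE. The h- label was set beside mating type genes: the summed level of 5 M-cell genes was 886 to 1377 CPM at 8 h, against 120.1 to 132 CPM at 0 h. The summed level of 3 P-cell genes was 91.4 to 93.9 CPM at 8 h, against 32.9 to 37.9 CPM at 0 h. At 2 h with drug the M-cell sum was 51.1 to 52.3 CPM, below its 0 h level. The P-cell sum there was 74.3 to 80.7 CPM, above its 0 h level. The sums hold different genes, so their sizes are not compared with each other. Both lists had counts in every group and all their genes were detected, and the h- label was not tested further.

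In starvation without drug, nmt1 and bsu1 rose and pho4 fell, and none of the other 4 genes changed by as much as 2-fold. After 8 h, 3 of 7 genes were called, 2 higher and 1 lower, where 34.6% of all genes were called (19% higher and 15.6% lower). Higher genes made up 54.9% of all calls at 8 h, or 65.1% with library size alone as the scaling. After 4 h only nmt1 was called, where 28.1% of all genes were. After 2 h edgeR called 0 of the 7 genes, against 5.76% of all genes. At 2 h, 6 of the 7 had an unadjusted p below 0.05, 5 an adjusted p below 0.05 (65.1% of all genes had one), and DESeq2 called 0. The median log2 fold change of the 7 genes against 0 h was -0.15 at 2 h, -0.14 at 4 h and 0.31 at 8 h, beside -0.02, -0.00 and -0.01 for all genes. The share of these genes that was called was therefore below that of all genes at 2 and 4 h and, at 3 of 7, above it at 8 h. The difference in shares was not tested.

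**Figure D1:**
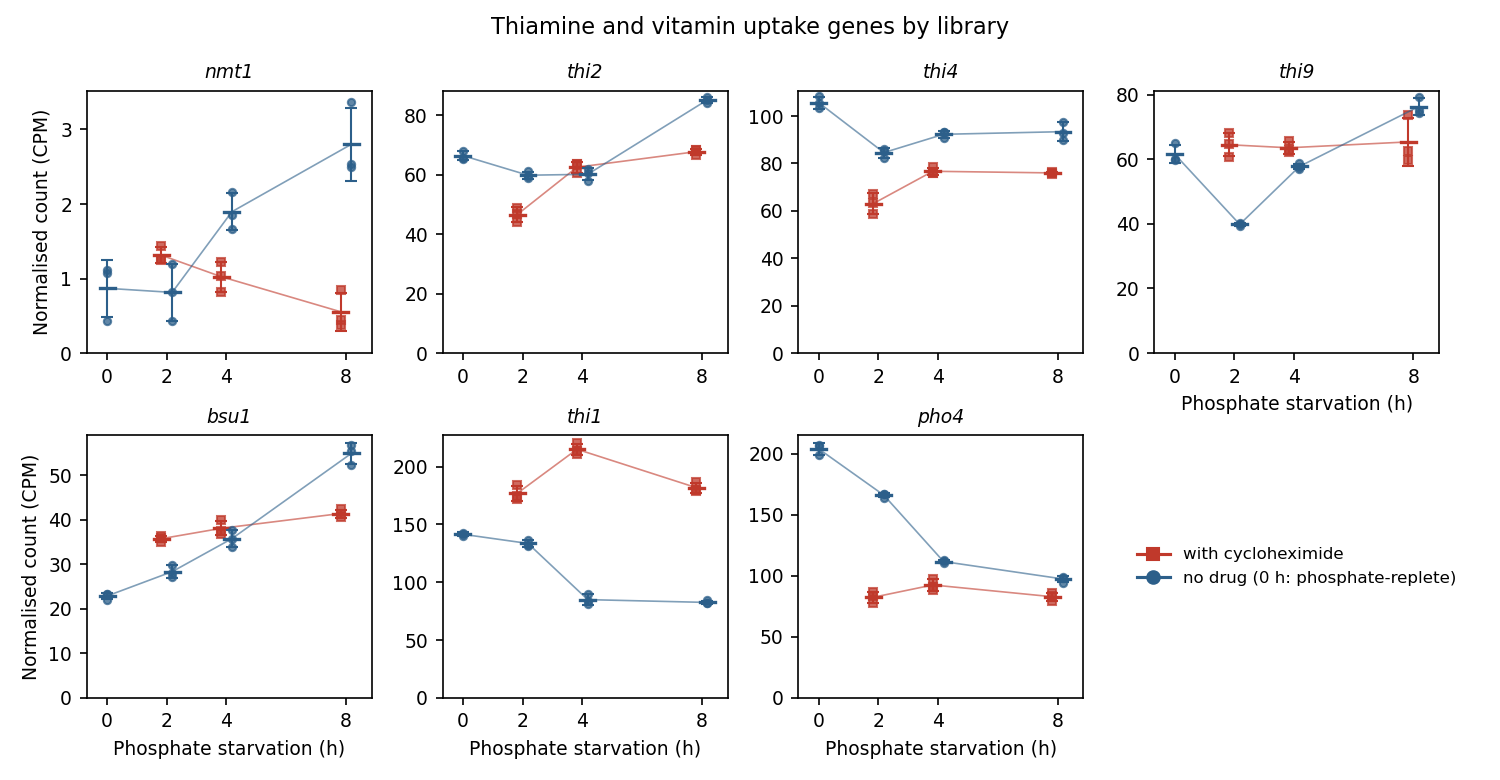
Normalised counts (CPM) of the 7 genes against hours of phosphate starvation, with a point for each library and a bar for the group mean ± SD (n = 3); red squares are libraries with cycloheximide and blue circles libraries with no drug, the 0 h group included. At 8 h without drug nmt1 (2.499 to 3.37 CPM) and bsu1 (52.4 to 56.9 CPM) lie above all their other libraries, and thi1 lies at 172 to 220.1 CPM in every library with drug and at 80.8 to 143 CPM in every library without.

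Among the synthesis genes, nmt1, which encodes the enzyme that makes the pyrimidine precursor, had very low levels throughout. Its libraries had 0.427, 1.11 and 1.07 CPM at 0 h, 0.826, 0.426 and 1.19 CPM at 2 h, 2.16, 1.67 and 1.86 CPM at 4 h, and 3.37, 2.53 and 2.499 CPM at 8 h. The libraries at 4 and 8 h were all above those at 0 and 2 h, which overlapped. Behind these levels stood only 65 to 96 counts per library at 8 h, against 10 to 30 at 0 h, the fewest counts of the 7 genes. This gave a log2 fold change of 1.12 ± 0.30 at 4 h against 0 h (adjusted p = 0.00147) and 1.68 ± 0.28 at 8 h against 0 h (adjusted p = 9.33e-06). Without 0 h replicate 1, the library with 10 counts, the value at 4 h was 0.80 (adjusted p = 0.016) and was no longer called. Within the same medium nmt1 was higher at 4 h than at 2 h by 1.20 ± 0.29 (adjusted p = 7.7e-04), or 0.91 without 2 h replicate 2. It was the only one of the 7 genes called in that comparison, against 14.2% of all genes. The change between 8 h and 4 h was 0.56 ± 0.23 (adjusted p = 0.0354), under 2-fold.

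The counts of nmt1 need to be read beside those of prl10, a noncoding RNA gene that lies across the whole of nmt1 on the opposite strand in the RefSeq annotation of assembly ASM294v3. The library kit keeps strand, but no source used here says whether the counting used strand, so reads of the 2 genes may not be fully separated. prl10 averaged 25.2, 25.7, 32.8 and 44.5 CPM at 0, 2, 4 and 8 h, and its log2 fold change at 8 h against 0 h was 0.82 ± 0.06, under 2-fold. For each 100 counts of prl10 there were 6.30 counts of nmt1 at 8 h (5.49 to 7.95 per library), against 3.49 at 0 h (1.69 to 4.50). The ratio was thus higher in all 8 h libraries than in all 0 h libraries, and the part of antisense reads in the nmt1 counts was not tested.

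**Figure D2:**
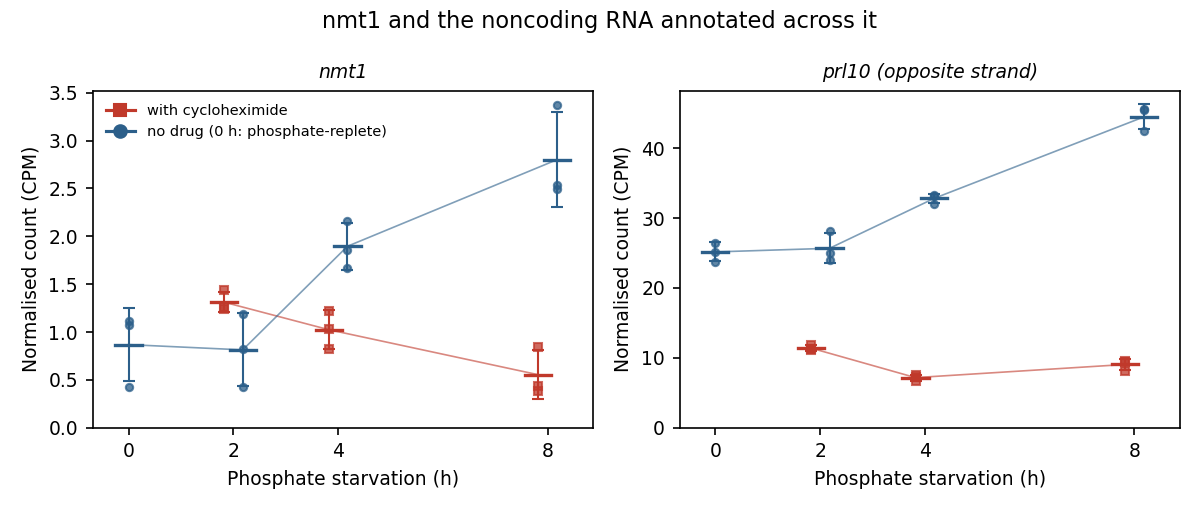
Normalised counts (CPM) of nmt1 (left) and of the noncoding RNA prl10 annotated across it on the opposite strand (right) against hours of starvation, with points for libraries and bars for mean ± SD (n = 3), red with cycloheximide and blue without. With drug the group means are 0.55 to 1.31 CPM for nmt1 and 7.18 to 11.4 CPM for prl10, and without drug both genes are highest at 8 h (means 2.80 and 44.5 CPM).

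The other 2 synthesis genes stayed within a narrow range. thi2, which encodes the enzyme that makes the thiazole precursor, had 84.1, 85.1 and 86.2 CPM at 8 h against 65.4, 68.2 and 65.7 CPM at 0 h, and averaged 59.8 and 60.1 CPM at 2 and 4 h. The 8 h libraries were all above those of the other times, with a log2 difference of 0.36 ± 0.04 against 0 h (adjusted p = 6.5e-09) and 0.50 ± 0.04 against 4 h (adjusted p = 9.59e-11). thi4, whose bifunctional product phosphorylates the thiazole and joins it to the pyrimidine, had 108, 105 and 103 CPM at 0 h and averaged 84.6, 92.3 and 93.4 CPM at 2, 4 and 8 h. Its starved libraries were all below those at 0 h, by 0.32 ± 0.04 at 2 h (adjusted p = 4.55e-07) and 0.18 ± 0.04 at 8 h (adjusted p = 3.27e-04) on the log2 scale. These differences were larger than the spread between replicates and smaller than 2-fold.

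A second overlap touches thi4. In the ASM294v3 annotation cdb4, annotated as an endonuclease gene, lies inside thi4 on the opposite strand, and it fell to 68.6 ± 1.84 CPM at 8 h, against 579 ± 13.8 CPM at 0 h (log2 fold change -3.08 ± 0.04, adjusted p = 1.66e-24). Over the same interval thi4 differed by -0.18, so a gene on the other strand of the same locus moved far more than thi4 did. How far reads of cdb4 enter the thi4 counts was not tested.

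Of the transporter genes, bsu1 rose and thi9 did not pass the fold threshold. bsu1, which encodes the high-affinity plasma membrane carrier for pyridoxine, pyridoxal and pyridoxamine, had 23.3, 23.3 and 22.1 CPM at 0 h, 28.0, 29.9 and 27.2 CPM at 2 h, 33.9, 37.7 and 35.7 CPM at 4 h, and 52.4, 55.5 and 56.9 CPM at 8 h. No 2 of these 4 groups overlapped, and each later group was above the one before. Against 0 h its log2 fold change was 0.31 ± 0.05 at 2 h, 0.65 ± 0.05 at 4 h and 1.26 ± 0.05 at 8 h (adjusted p = 3.39e-16), and the last alone reached 2-fold. From 4 h to 8 h, in the same medium, it differed by 0.62 ± 0.05 (adjusted p = 2.82e-10).

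thi9, the gene of the high-affinity thiamine and proton symporter, took another course. Its libraries had 59.9, 64.9 and 59.9 CPM at 0 h, 39.4, 39.9 and 40.3 CPM at 2 h, 56.9, 58.7 and 57.6 CPM at 4 h, and 79.3, 74.3 and 75.3 CPM at 8 h. The 2 h libraries were the lowest and the 8 h libraries the highest, with no overlap between any of the 4 groups. The log2 fold change against 0 h was -0.63 ± 0.06 at 2 h (adjusted p = 8.54e-09), -0.09 ± 0.06 at 4 h (adjusted p = 0.15) and 0.31 ± 0.06 at 8 h (adjusted p = 3.35e-05), all under 2-fold. SPNCRNA.743, a noncoding RNA gene that overlaps part of thi9 on the opposite strand, had the same order of means at 7.34, 4.59, 6.52 and 11.04 CPM at 0, 2, 4 and 8 h.

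thi1, the regulator gene, differed from 0 h by less than 2-fold at every time. Its libraries had 139.7, 142 and 143 CPM at 0 h, 132, 132 and 137 CPM at 2 h, 80.8, 84.0 and 90.0 CPM at 4 h, and 84.3, 81.7 and 81.6 CPM at 8 h. The levels at 0 and 2 h were all above those at 4 and 8 h, and the last 2 groups overlapped. The log2 fold change against 0 h was -0.08 ± 0.04 at 2 h (adjusted p = 0.052), -0.73 ± 0.04 at 4 h (adjusted p = 2.54e-14) and -0.78 ± 0.04 at 8 h (adjusted p = 7.61e-15). The libraries of thi1 were below all those at 0 h at each of the 3 times, by little at 2 h. Against 0 h nmt1 was called higher at 4 and 8 h and pho4 was called lower at 8 h.

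pho4, the thiamine-repressible acid phosphatase gene, fell. Its libraries had 199, 207 and 206 CPM at 0 h, 164, 167 and 167 CPM at 2 h, 110.1, 113 and 112 CPM at 4 h, and 99.4, 94.2 and 98.5 CPM at 8 h. Each group was below the one before with no overlap. The log2 fold change against 0 h was -0.30 ± 0.04 at 2 h, -0.87 ± 0.04 at 4 h and -1.07 ± 0.04 at 8 h (adjusted p = 7.8e-17), and at 8 h it passed the fold threshold. With library size alone as the scaling, the value at 8 h was -0.86, under 2-fold, where that scaling moved the median of all genes by 0.20. The phosphate-controlled acid phosphatase gene pho1 went the other way, with a log2 fold change of 4.17 ± 0.09 at 8 h against 0 h. SPNCRNA.1358, a noncoding RNA gene that overlaps part of pho4 on the opposite strand, also fell at 8 h against 0 h, by 1.25 ± 0.11 on the log2 scale (adjusted p = 4.87e-10).

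Between 8 h and 4 h without drug edgeR called 0 of the 7 genes, with 6.56% of all genes called. All 5 genes with an unadjusted p below 0.05 also had an adjusted p below 0.05, as 70.1% of all genes did, and DESeq2 called 0.

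**Figure D3:**
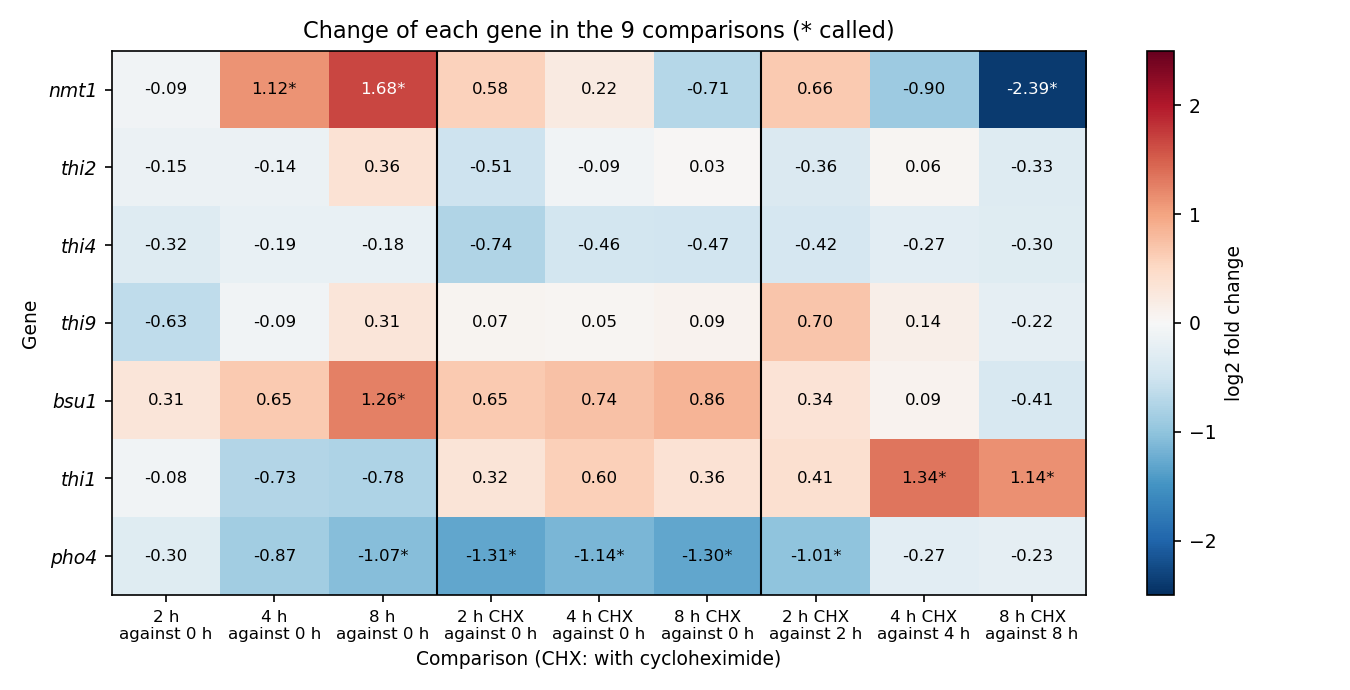
Log2 fold change of each gene (rows) in 9 comparisons (columns), coloured from blue for lower to red for higher, with an asterisk where the gene was called; CHX stands for cycloheximide. nmt1 ranges from 1.68 at 8 h against 0 h to -2.39 at 8 h with drug against 8 h without, pho4 is negative in every column, and thi2 and thi4 carry no asterisk.

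In starved cells with cycloheximide set against 0 h, pho4 was the only one of the 7 genes that was called, and it fell at all 3 times. At 2 h 31.5% of all genes were called in this comparison, at 4 h 29.6% and at 8 h 26.8%. pho4 had 86.5, 77.3 and 83.3 CPM at 2 h, 88.6, 91.2 and 97.7 CPM at 4 h and 79.6, 83.1 and 85.9 CPM at 8 h with drug, against 199 to 207 CPM at 0 h. Log2 fold changes of pho4 were -1.31 ± 0.04 (adjusted p = 4.58e-18), -1.14 ± 0.04 (adjusted p = 4.67e-17) and -1.30 ± 0.04 (adjusted p = 6.48e-18). The level after 2 h with drug was below that after 8 h without.

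The other genes kept within 2-fold of 0 h in the drug-treated groups. bsu1 differed by 0.65 ± 0.05, 0.74 ± 0.05 and 0.86 ± 0.05 at 2, 4 and 8 h, and its value at 8 h was 1.09 and called when library size alone was the scaling, which moved the median of all genes by 0.23. thi1 differed by 0.32 ± 0.04, 0.60 ± 0.04 and 0.36 ± 0.04, and its drug-treated libraries were all above those at 0 h. thi4 differed by -0.74 ± 0.04, -0.46 ± 0.04 and -0.47 ± 0.04, and its drug-treated libraries were all below those at 0 h. thi9 stayed at 0.07, 0.05 and 0.09, each ± 0.06, with overlapping libraries (adjusted p = 0.259, 0.461 and 0.164), and thi2 differed by -0.51 ± 0.04 at 2 h and 0.03 ± 0.04 at 8 h.

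nmt1 did not pass the test against 0 h at any time with drug, with values of 0.58 ± 0.32 at 2 h (adjusted p = 0.0975), 0.22 ± 0.34 at 4 h (adjusted p = 0.553) and -0.71 ± 0.38 at 8 h (adjusted p = 0.0902). Leaving out either 0 h replicate 1 or the drug-treated 8 h replicate 1 gave -1.03 (adjusted p = 0.0136) and -1.09 (adjusted p = 0.0219) at 8 h, both called. On 45 counts with drug at 8 h, against 63 at 0 h, the call thus turned on single libraries.

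Drug was then set against no drug at the same time of starvation, where both groups share the medium and the loss of phosphate. At 8 h nmt1 fell and thi1 rose, which made 2 of 7 genes called, against 37.9% of all genes (17.1% higher and 20.8% lower). At 4 h thi1 alone was called, against 40.8% of all genes, and at 2 h pho4 alone, against 29.3% of all genes. The median log2 fold change of the 7 genes was 0.34 at 2 h, 0.06 at 4 h and -0.30 at 8 h, beside -0.04, -0.04 and -0.03 for all genes.

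nmt1 had 0.846, 0.381 and 0.438 CPM with drug at 8 h, against 3.37, 2.53 and 2.499 CPM without. All 3 drug-treated libraries were below all 3 untreated ones, on 45 counts in all against 239. The log2 fold change was -2.39 ± 0.30 (adjusted p = 1.33e-07), the largest in size of the 7 genes here, and it stayed called with any single library left out. At 4 h it was -0.90 ± 0.28 (adjusted p = 0.00528), under 2-fold, and -1.04 and called without the drug-treated replicate 3. At 2 h it was 0.66 ± 0.32 (adjusted p = 0.0565), with 1.24 to 1.44 CPM with drug against 0.426 to 1.19 CPM without, and 1.04 and called without the untreated replicate 3.

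prl10 was lower with drug at all 3 times, by -1.17 ± 0.07, -2.19 ± 0.08 and -2.29 ± 0.07 at 2, 4 and 8 h, each called. At 8 h there were 5.78 counts of nmt1 for each 100 of prl10 with drug and 6.30 without, with library ranges of 4.02 to 10.4 and 5.49 to 7.95 that overlapped. At 2 h the ratio was 11.4 with drug and 3.20 without, and the ranges did not overlap. At 4 h it was 14.1 with drug (10.95 to 16.7) and 5.77 without (5.21 to 6.49), again with no overlap. The fall of nmt1 at 8 h thus came with a fall of similar size in the gene across from it. At 2 and 4 h prl10 fell, while nmt1 was not called in the main fit. The part of antisense reads was not tested.

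thi1 had 211, 214 and 220.1 CPM with drug at 4 h, against 80.8, 84.0 and 90.0 CPM without, and 179, 179.6 and 187 CPM with drug at 8 h, against 84.3, 81.7 and 81.6 CPM without. The groups were far apart at both times. On the log2 scale thi1 differed by 0.41 ± 0.04 at 2 h, under 2-fold, 1.34 ± 0.04 at 4 h (adjusted p = 2.37e-19) and 1.14 ± 0.04 at 8 h (adjusted p = 4.81e-18). The transcript of this activator was thus higher at 8 h with drug, where nmt1 was lower and pho4 differed by -0.23 ± 0.04, under 2-fold.

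pho4 had 86.5, 77.3 and 83.3 CPM with drug at 2 h, against 164, 167 and 167 CPM without. The log2 fold change of -1.01 ± 0.04 (adjusted p = 3.94e-16) lay just past 2-fold. It lay between -0.97 and -0.99 under 5 other settings, among them other scalings and DESeq2, and was -0.97 without the drug-treated replicate 2, each with an adjusted p of 6.01e-10 or lower, so the call at 2-fold rests on the setting. At 4 h the difference was -0.27 ± 0.04 (adjusted p = 1.91e-06) and at 8 h -0.23 ± 0.04 (adjusted p = 1.93e-05).

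The remaining genes differed by less than 2-fold between drug and no drug. thi9 differed most at 2 h, with 68.0, 64.7 and 60.7 CPM with drug against 39.4, 39.9 and 40.3 CPM without, a log2 difference of 0.70 ± 0.06 (adjusted p = 3.07e-10). At 8 h it differed by -0.22 ± 0.06, and the drug-treated libraries were uneven at 59.8, 62.5 and 73.7 CPM. bsu1 differed by 0.34 ± 0.05 at 2 h, 0.09 ± 0.05 at 4 h (adjusted p = 0.0926) and -0.41 ± 0.05 at 8 h (adjusted p = 5.49e-08). thi2 differed by -0.36 ± 0.04, 0.06 ± 0.04 and -0.33 ± 0.04 at 2, 4 and 8 h, and thi4 by -0.42 ± 0.04, -0.27 ± 0.04 and -0.30 ± 0.04. While thi4 differed this little, cdb4 on its other strand rose by 2.43 ± 0.04 at 8 h with drug against without, to 369 ± 10.1 CPM against 68.6 ± 1.84 CPM.

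The drug effect at 8 h was compared with the drug effect at 2 h as an interaction in the same fit. nmt1 alone of the 7 genes was called, with a difference of -3.05 ± 0.44 (adjusted p = 1.59e-06), where 32% of all genes were called. A further 4 genes had an adjusted p below 0.05 with a difference under 2-fold, and over all genes 81.8% had an adjusted p below 0.05. thi9 (-0.92 ± 0.08, adjusted p = 8.66e-10) and bsu1 (-0.74 ± 0.07, adjusted p = 2.17e-09) had a drug effect that was positive at 2 h and negative at 8 h. thi1 (0.73 ± 0.05, adjusted p = 1.46e-11) was further above the untreated cells at 8 h, and pho4 (0.78 ± 0.06, adjusted p = 3.56e-11) was less far below them. For thi2 the difference was 0.03 ± 0.05 (adjusted p = 0.567) and for thi4 0.13 ± 0.06 (adjusted p = 0.0507).

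Within the drug-treated cells edgeR called 0 of the 7 genes at 4 h against 2 h, with 5.96% of all genes called, and 0 at 8 h against 4 h, with 7.88% of all genes called. In the first, 4 genes had an unadjusted p below 0.05 and in the second 5. DESeq2 called 0 in both. For nmt1 the value at 8 h against 4 h was -0.93 ± 0.37 (adjusted p = 0.0304), and it passed 2-fold without the 4 h replicate 2 (-1.07) or without the 8 h replicate 1 (-1.31).

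The 7 genes did not share an order of levels across the 7 groups. The mean level was highest at 8 h without drug for nmt1, thi2, thi9 and bsu1, at 0 h for thi4 and pho4, and at 4 h with drug for thi1. In all 7 genes the libraries of the highest group stood clear of those of the next. The ratio of the highest to the lowest group mean was 5.05 for nmt1, 2.61 for thi1, 2.48 for pho4, 2.40 for bsu1, 1.92 for thi9, 1.83 for thi2 and 1.68 for thi4. Neighbours in the order that overlapped included, for nmt1, 4 h with drug (0.822 to 1.22 CPM), 0 h and 2 h without drug, and 8 h with drug. For thi9 they were the 3 groups with drug and the 0 h group, which lay between 59.8 and 73.7 CPM together. For thi2 the 8 h group with drug overlapped 0 h, and the 4 h group with drug overlapped 4 h without, which overlapped 2 h. For bsu1 the 2 h and 4 h groups with drug overlapped 4 h without. The drug-treated 8 h group overlapped 4 h with drug for thi4 and 2 h with drug for thi1 and pho4. Without drug the 8 h and 4 h groups overlapped for thi4 and thi1, and 4 h with drug overlapped 8 h without for pho4. All other neighbours in the order were apart.

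Over the 7 group means, which share the scaling of the libraries, Pearson's r of log2 CPM between pairs of these genes ran from -0.80 for bsu1 and pho4 to 0.72 for thi4 and pho4. The r of nmt1 with thi1, its activator, was -0.73. Between the synthesis genes r was 0.65 for thi2 and thi4, 0.25 for nmt1 and thi2, and 0.18 for nmt1 and thi4. These values describe 7 points and carry no test.

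Among 4679 other named genes whose highest group averaged 100 scaled counts or more, the 3 whose pattern was most like that of each gene over the 7 group means were found by the same r. For nmt1 they were an antisense RNA gene, SPBC1734.03-antisense-1 (r = 0.99), the meiotic septin gene spn5 and the protease gene wss2 (both 0.98). Over the 21 libraries their r with nmt1 was lower, at 0.851, 0.859 and 0.836. For thi2 they were shf1, of a histone ubiquitin ligase complex, the SUMO peptidase gene ulp2 (both 0.96) and the tRNA methyltransferase gene trm7 (0.94). For thi4 they were the mitochondrial ribosomal protein gene mrpl51 (0.98), inp2, of peroxisome inheritance, and the SUMO activating enzyme gene uba2 (both 0.97). For thi9 they were the oxidoreductase gene pbr1 (0.96), the tRNA modification gene mss1 (0.90) and mug121 (0.87). Likeness over the group means was weaker here, and over the 21 libraries r was 0.894, 0.852 and 0.827. For bsu1 they were the SAGA subunit gene spt20, wtf15, whose counts are uncertain because it belongs to a multigene family, and spd1, an inhibitor of ribonucleotide reductase (all 0.98). For thi1 they were the separase gene cut1, gid10 and pof10-antisense-1 (0.993 to 0.997), and for pho4 the tryptophan-tRNA ligase gene wrs1, the tRNA deaminase gene tad3 and tim9 (0.992 to 0.995).

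The other thiamine genes were a list of 3, tnr3, SPBC1604.04 and thi5, of which tnr3 and SPBC1604.04 were called lower with drug and thi5 was not. tnr3, which encodes the kinase that turns thiamine into thiamine diphosphate, averaged 5.77, 7.08 and 13.1 CPM at 2, 4 and 8 h with drug. Without drug it averaged 56.9, 53.9, 57.5 and 59.0 CPM at 0, 2, 4 and 8 h. With drug against no drug it fell, with log2 fold changes of -3.20 ± 0.07 at 2 h, -3.03 ± 0.07 at 4 h and -2.16 ± 0.06 at 8 h. SPBC1604.04, a mitochondrial carrier of thiamine diphosphate, also fell with drug at each time (-1.15 ± 0.06, -1.26 ± 0.06 and -1.43 ± 0.05). thi5, a transcription factor gene that acts with thi1, differed by 0.73 ± 0.05 at 8 h against 0 h (adjusted p = 7.16e-13) and by -0.37 ± 0.04 at 8 h with drug against without, both under 2-fold. With 2 of 3 called lower, where 20.8% of all genes were, the list's median was -1.43 at 8 h with drug against without, beside -0.03 for all genes.

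Of 9 enzymes that use thiamine diphosphate, 2 were higher and 1 lower at 8 h against 0 h without drug (median 0.22, beside -0.01 for all genes). The share called, 33.3%, was near the 34.6% of all genes. pdc201, a pyruvate decarboxylase gene, rose to 287 CPM at 8 h, against 6.42 CPM at 0 h, and pdc202, another, rose by 1.12 ± 0.10. The acetolactate synthase gene ilv1 fell by 1.34 ± 0.04. pdc101, the pyruvate decarboxylase gene with the most counts, differed by 0.19 ± 0.06, kgd1 of the 2-oxoglutarate dehydrogenase by 0.93 ± 0.04, and the transketolase gene tkt1 by 0.22 ± 0.05, all under 2-fold. The pyruvate dehydrogenase genes pda1 (-0.51 ± 0.04) and pdb1 (-0.58 ± 0.04) differed in the other direction, also under 2-fold. pdc102, at 0.72 CPM against 0.62 CPM, differed by 0.25 ± 0.39 (adjusted p = 0.547). With drug at 8 h, against no drug, 3 of the 9 were lower (median -0.55, beside -0.03 for all genes), and this share of 33.3% stands beside the 20.8% of all genes called lower and the 37.9% called either way. These 3 were pdc101 (-2.75 ± 0.06), pdc202 (-1.96 ± 0.11) and pdc201 (-1.57 ± 0.09). For pdc201 the direction depended on the time: with drug against no drug it rose by 2.81 ± 0.11 at 2 h (136 against 19.4 CPM) and differed by 0.04 ± 0.09 at 4 h (adjusted p = 0.642). Its drug-treated groups all rose against 0 h, by 4.39 ± 0.13 at 2 h, 4.33 ± 0.13 at 4 h and 3.90 ± 0.13 at 8 h.

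**Figure D4:**
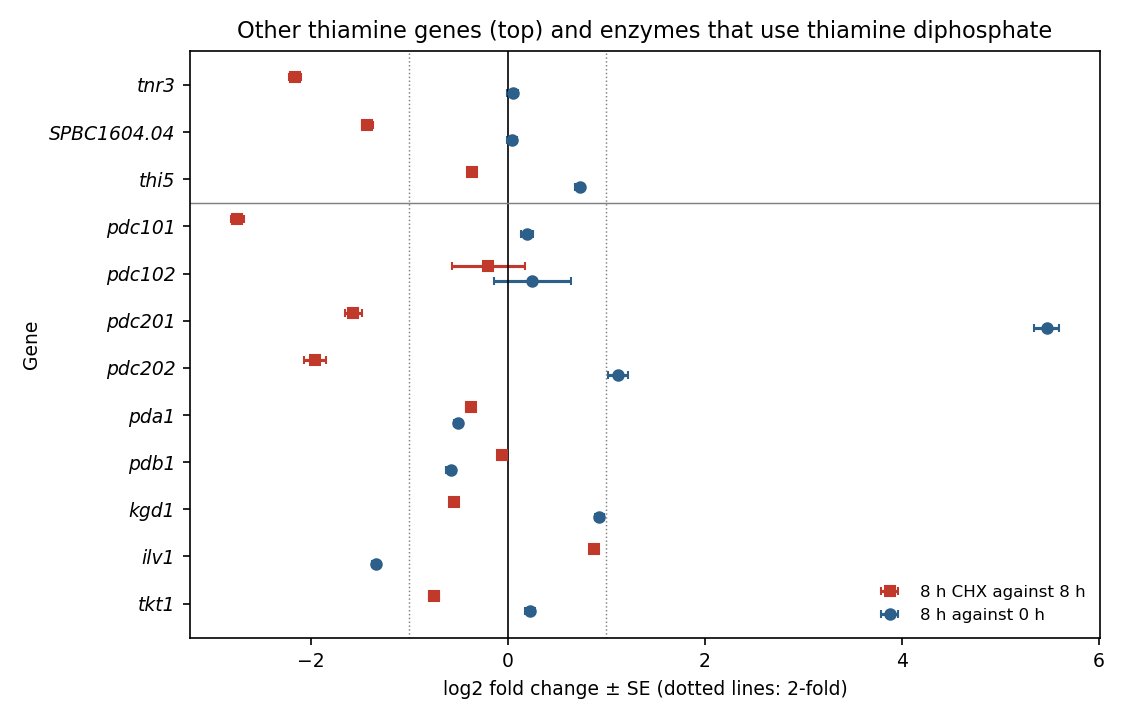
Log2 fold change ± SE of 3 other thiamine genes (top) and 9 genes of enzymes that use thiamine diphosphate (below), with red squares for 8 h with cycloheximide (CHX) against 8 h without and blue circles for 8 h against 0 h; dotted lines mark 2-fold. tnr3 (-2.16) and pdc101 (-2.75) lie far to the left with drug and near 0 in starvation, and pdc201 stands apart at 5.47 in starvation.

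The list of 41 other vitamin genes joined genes chosen by name with genes found by their product names. The product names searched were those for pyridoxine, riboflavin, biotin, pantothenate, nicotinate and folate, leaving out products described as "dependent". Against 0 h without drug, the list had 3 higher and 1 lower at 2 h, 6 higher and 9 lower at 4 h and 6 higher and 11 lower at 8 h. The medians were -0.19, -0.43 and -0.37, beside -0.02, -0.00 and -0.01 for all genes. The share of the list called was 9.76%, 36.6% and 41.5%, beside 5.76%, 28.1% and 34.6% of all genes. Of all genes, 3.94% were higher and 1.81% lower at 2 h, 14.2% higher and 13.9% lower at 4 h, and 19% higher and 15.6% lower at 8 h. Among pyridoxine genes, akr7 (pyridoxal reductase) rose by 3.78 ± 0.13 and SPBC725.03 (pyridoxamine phosphate oxidase) by 2.98 ± 0.14 at 8 h, while the synthesis genes snz1 and sno1 fell (-2.64 ± 0.05 and -1.58 ± 0.05). The pyridoxine genes went both ways: plr1 (pyridoxal reductase) also rose by 1.53 ± 0.08, and SPCC576.17c, annotated like bsu1 as a transporter of pyridoxine and its relatives, fell by 1.26 ± 0.10. pdx3 (pyridoxamine phosphate oxidase) differed by -0.17 ± 0.04, and SPCC965.13, a further transporter gene of the pyridoxal family, by 0.05 ± 0.03, neither called. These 4 genes were named here after their values were seen. vht1, the transporter gene for vitamin H, fell by 3.03 ± 0.08, and urg3, whose product is implicated in uracil or riboflavin metabolism, rose by 2.88 ± 0.08.

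With drug against no drug, the vitamin list had 2 higher and 9 lower at 2 h, 5 higher and 10 lower at 4 h and 6 higher and 10 lower at 8 h, with medians of -0.38, -0.24 and -0.09, beside -0.04, -0.04 and -0.03 for all genes. The share of the list called was 26.8%, 36.6% and 39%, below or near the 29.3%, 40.8% and 37.9% of all genes. Of all genes, 15.8% were higher and 13.5% lower at 2 h, 19.9% higher and 20.9% lower at 4 h, and 17.1% higher and 20.8% lower at 8 h. SPCC576.17c rose to 262 CPM with drug at 2 h, against 12.0 CPM without, a log2 fold change of 4.45 ± 0.08. bsu1 differed by 0.34 in the same comparison. At 8 h snz1 rose by 2.33 ± 0.05 with drug against without, and the pyridoxal reductase genes akr7 (-3.44 ± 0.12) and plr1 (-3.10 ± 0.09) fell. The riboflavin synthase gene rib5 fell by 3.49 ± 0.05 and the folate pathway genes met9 and ade9 rose by 1.72 ± 0.04 and 1.35 ± 0.06.

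Set against 0 h, the drug-treated groups had 1 vitamin gene higher and 12 lower at 2 h, 14 lower at 4 h, and 1 higher and 13 lower at 8 h. The share of the list called was 31.7%, 34.1% and 34.1%, beside 31.5%, 29.6% and 26.8% of all genes, and the medians were -0.53, -0.59 and -0.48, beside -0.05, -0.07 and -0.06. Of all genes, 17% were higher and 14.5% lower at 2 h, 14.8% higher and 14.8% lower at 4 h, and 12.6% higher and 14.1% lower at 8 h. The folate enzyme gene fau1 was among the lowest each time, with -2.19 ± 0.09, -2.79 ± 0.09 and -3.21 ± 0.10, and the riboflavin pathway gene rib4 fell by about the same amount throughout, with -2.07 ± 0.05, -2.01 ± 0.05 and -2.01 ± 0.05. Of the phosphate genes, tgp1 and pho84 rose at 8 h against 0 h without drug by 6.95 ± 0.08 and 2.58 ± 0.08. pho7, the gene of the transcription factor that controls pho1, differed by 0.16 ± 0.04 there and rose by 1.42 ± 0.04 at 8 h with drug against without. thi1 and pho7, both genes of transcription factors, were higher with drug at 8 h, while pho1 (-4.69 ± 0.09) and nmt1 (-2.39 ± 0.30) fell. pho4, which also needs Thi1, differed by -0.23 ± 0.04 in that comparison, under 2-fold. A link between these changes was not tested. The fall of nmt1 rests on few counts and came with a fall of prl10 (-2.29 ± 0.07).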

How the data were processed

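The authors deposited a table of whole-number read counts for 6988 genes in 21 libraries, with no normalization, together with 6 tables, each setting a starved group against 0 h. Per the file headers those tables hold a DESeq2 log2 fold change, a p-value and an adjusted p-value, and the authors' mean signal per group. They were used for gene symbols (4987 genes) and product names, and 42 of their log2 fold changes for these genes all had the sign found here. The submitters' processing notes name the build ASM294v2 and, with no roles, the tools HTSeq 0.10.0, HISAT2 2.1.0, DESeq2, DESeq and SAMtools; no source used here gives the strand setting. Overlapping genes were read from RefSeq's ASM294v3 annotation (6836 of 6988 identifiers matched), another build, so no coordinates or sequences are given.

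The deposited counts entered edgeR 4.0.16 (R 4.3.3; quasi-likelihood test, TMM, default filter, which removed 596 genes) in 1 fit of all 21 libraries with group as its term (prior degrees of freedom 7.07). SEs are the log2 fold change over the square root of F, and r used log2 CPM with a prior count of 2. Replicate pairs had r of 0.994 to 0.9979 and differed by more than sampling noise (chi-square per gene 3.66 to 23.6). The script was tested on simulated counts with known changes, modelled on 8 h against 0 h. At a set change of 2.5-fold 50 of 50 genes were called, and 0 of 6192 unchanged genes were. The set changes lay only in genes with more counts at 0 h than nmt1, so the test does not cover nmt1. Named by rule are the 7 genes, up to 3 called members per list, direction and comparison, pho1, pho84, tgp1 and pho7, and the 3 genes most like each of the 7. Genes that overlap the 7 on the opposite strand, and some further list members such as thi5, kgd1 and tkt1, are named outside this rule. The genes and lists were chosen with earlier results of these data known. Alternatives were scaling by library size alone or by RLE size factors, a stricter filter (mean of at least 100 counts) or none, DESeq2 1.42.0, the compared groups only, a replicate block and each library left out.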

Additional observations from a re-analysis of the deposited data

Results flagged for a closer look

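For 5 of the 7 genes the effect of cycloheximide at 8 h differed from its effect at 2 h in the interaction test at an adjusted p below 0.05, as it did for 81.8% of all genes. With the 2-fold rule added, 1 of the 7 genes (nmt1) and 32% of all genes were called. The difference, on the log2 scale with its SE and adjusted p from edgeR, was -3.05 ± 0.44 for nmt1 (1.59e-06), -0.92 ± 0.08 for thi9 (8.66e-10), -0.74 ± 0.07 for bsu1 (2.17e-09), 0.73 ± 0.05 for thi1 (1.46e-11) and 0.78 ± 0.06 for pho4 (3.56e-11). The drug effects behind them, at 8 h and at 2 h, were -2.39 and 0.66 for nmt1, -0.22 and 0.70 for thi9, -0.41 and 0.34 for bsu1, 1.14 and 0.41 for thi1, and -0.23 and -1.01 for pho4. For thi9 and bsu1 the sign of the drug effect thus differed between the times, and for thi1 and pho4 its size did. For nmt1 the effect at 2 h did not pass the test (0.66 ± 0.32, adjusted p = 0.0565), so its sign there is not established. The value for nmt1 rests on 45 counts with drug and 239 without at 8 h.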

How the results depend on the processing

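Of 1302 alternative log2 fold changes of the 7 genes, over 98 pairs of a gene and a comparison, 1285 stayed on the same side of the call, 9 lost it, 8 gained it, and 0 called values changed sign. The stricter filter on low counts removed nmt1, which left 0 of the 7 genes called at 4 h against 0 h, 0 at 4 h against 2 h, 0 in the interaction of drug and time, and 1 at 8 h with drug against without; the counts over all genes were 279 (419 by default) at 8 h against 4 h, and with drug 226 (381) at 4 h against 2 h and 287 (504) at 8 h against 4 h. Because pho4 sat just past 2-fold at 2 h with drug against without, 0 of the 7 genes were called there with RLE size factors, library size alone, the stricter filter, DESeq2 and the compared groups only. With library size alone 2 of the 7 genes, bsu1 and pho4, were called at 8 h with drug against 0 h, and pho4 was not at 8 h against 0 h (-0.86). That scaling moved the median of all genes by 0.21 at 4 h and 0.20 at 8 h against 0 h without drug, and by 0.23 at 8 h with drug, and the share of calls that were higher became 79.5% (68.5% with TMM) at 2 h, 63.3% (50.5%) at 4 h and 65.1% (54.9%) at 8 h against 0 h, 63.4% (47.2%) at 8 h with drug against 0 h, and 51.8% (38.1%) at 8 h against 4 h with drug.

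With each library left out in turn, the count of the 7 genes called ran from 0 to 1 at 4 h against 0 h, 0 to 1 at 4 h against 2 h and 1 to 2 at 8 h with drug against 0 h. With drug against without it ran from 0 to 2 (2 h) and from 1 to 2 (4 h). It ran from 0 to 1 at 8 h against 4 h with drug, and from 1 to 2 in the interaction. All of these moves came from nmt1, except that pho4 was lost at 2 h without the drug-treated replicate 2 and that thi9 reached -1.01 in the interaction without the drug-treated 8 h replicate 3.

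The main fit did not pair libraries by replicate number, though deviations from the group means gave a hint of pairing. Over 63 pairs of libraries with the same number, the correlation of these deviations ran from -0.289 to 0.371 with a median of 0.042 (11 over 0.1). Over 126 pairs with different numbers the median was -0.0189 (13 over 0.1). For 15 of 21 libraries the mean correlation with libraries of other groups was highest for those of their own number. This hint comes from the data and not from the design. With the replicate block 3 of the 7 genes and 2208 of all genes were called at 8 h against 0 h (3 and 2209 without the block), and it changed no call of the 7 genes. Depth limits nmt1 above all, with 45 to 239 counts per group.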
